A study of Homo sapiens with 9 samples.

Results

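The keratin gene family was followed in Hec50, an established line of human endometrial cancer cells, after transfection with a synthetic mimic of the microRNA miR-200c. Its members were all genes whose only symbol in the annotation of the array platform was KRT, a number and at most 1 further letter. This rule found 44 keratin genes among 19775 genes tested, carried by 56 of the 54675 probe sets of the array. The 9 Affymetrix arrays held RNA of mock transfected cells on 3 arrays (mock), of cells given a scrambled negative control RNA on 3 (scrambled) and of cells given the miR-200c mimic on 3 (mimic). Mimic and scrambled RNA were used at 60 nM and the cells taken after 48 hours, and the labels state neither dose nor time for the mock arrays. All 9 arrays come from 1 cell line grown in serum, and no allele or other agent is named. The design text asks which genes respond to miR-200c in an aggressive cancer.

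Keratins are the intermediate filament proteins of epithelial cells. A filament is built from pairs of 1 type I (acidic) and 1 type II (basic) keratin, so members of both types are made together: KRT8 with KRT18 in simple epithelia such as endometrial glands, and KRT5 with KRT14 or KRT15 in the basal layer of stratified epithelia. Desmosomes and hemidesmosomes anchor the filaments through plakins such as desmoplakin, and carcinomas that take on mesenchymal features often lose keratins and gain vimentin. The miR-200 family is abundant in epithelial cells and represses the transcription factors ZEB1 and ZEB2, which bind E-box sequences in the promoters of epithelial genes.

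The microRNA that was put into the cells is shown first, with the seed (bases 2 to 8), the stretch that pairs with target messenger RNAs, in capitals. The sequence is that of RefSeq on GRCh38.p14, chr12:6963742-6963764, plus strand, written 5′ to 3′.
hsa-miR-200c-3p: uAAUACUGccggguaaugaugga

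From every log2 expression value the probe set's own median over the 9 arrays had been taken off, so that 0 is that median and values compare arrays within a gene, not genes with each other. A difference of 1 is 2-fold, if the logarithm is to base 2 as assumed. A gene was called when its limma adjusted p (Benjamini-Hochberg over 19775 genes) was under 0.05. By a level class recovered from the rounding of the stored numbers, 7 keratin genes lay at a log2 level of 8 or more (KRT7, KRT8, KRT10, KRT18, KRT71, KRT80 and KRT84), 28 lay from 4 to 8 and 9 lay below 4. Of all genes, 44.1%, 45.4% and 10.5% lay in these classes. Signal over background is not known, so a class does not say that a keratin was or was not expressed. Of 55 protein-coding keratin symbols in the RefSeq gene table, the 11 not analysed here are KRT6A, KRT6B, KRT6C, KRT17, KRT26, KRT28, KRT34, KRT39, KRT81, KRT82 and KRT86.

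Within a group, the log2 differences between 2 replicates had an SD of 0.112 to 0.149 over genes, and 2.19% to 2.85% of genes had identical values in a pair of them. The centred 3′ minus the centred 5′ control probe set of ACTB was -0.176 ± 0.027 for mock, 0.099 ± 0.036 for scrambled and 0.016 ± 0.084 for mimic arrays (log2, SD, n = 3). Each probe set was centred on its own median, so the sign and size of this difference do not measure RNA integrity. Only its shifts between groups can bear on integrity, and the groups were not alike in it. For GAPDH the same difference was 0.027 ± 0.035, 0.007 ± 0.023 and -0.015 ± 0.035. Of 6 leukocyte markers measured, 0 were called for mimic against scrambled and 2 were higher for mimic against mock (CD3E by 0.20 and ITGAM by 0.21, log2). CD3E was also higher in scrambled than in mock arrays (0.28, limma adjusted p = 0.0169), and the mimic against mock calls were lost in 8 of 16 alternatives for CD3E and in 3 of 17 for ITGAM, whose difference was 0.09 when both its probe sets were averaged. Of 6 endothelial markers, 0 were called in either comparison. Over all genes, 14.6% were called for mimic against scrambled and 18.6% for mimic against mock. The epithelial marker EPCAM lay in the class of 8 or more, as did the leukocyte marker ITGAM, and CDH1 lay in that from 4 to 8. These classes therefore do not set the epithelial markers apart.

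Against the scrambled control, 5 of 44 keratin genes were called: KRT15, KRT8 and KRT18 were higher with the mimic, and KRT5 and KRT33B were lower. Over all genes tested, 14.6% were called, 7.62% higher and 7.00% lower, so the number of keratins called is no higher than this background. The median log2 difference was 0.00 over the keratins and -0.01 over all genes. Of the keratins, KRT15 alone was called with a difference of at least 1.5-fold, as were 1.49% of all genes. Whether replicates are separate cultures is not stated in the labels, and the p-values measure only how these samples vary among themselves, possibly for technical reasons.

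**Figure D1:**
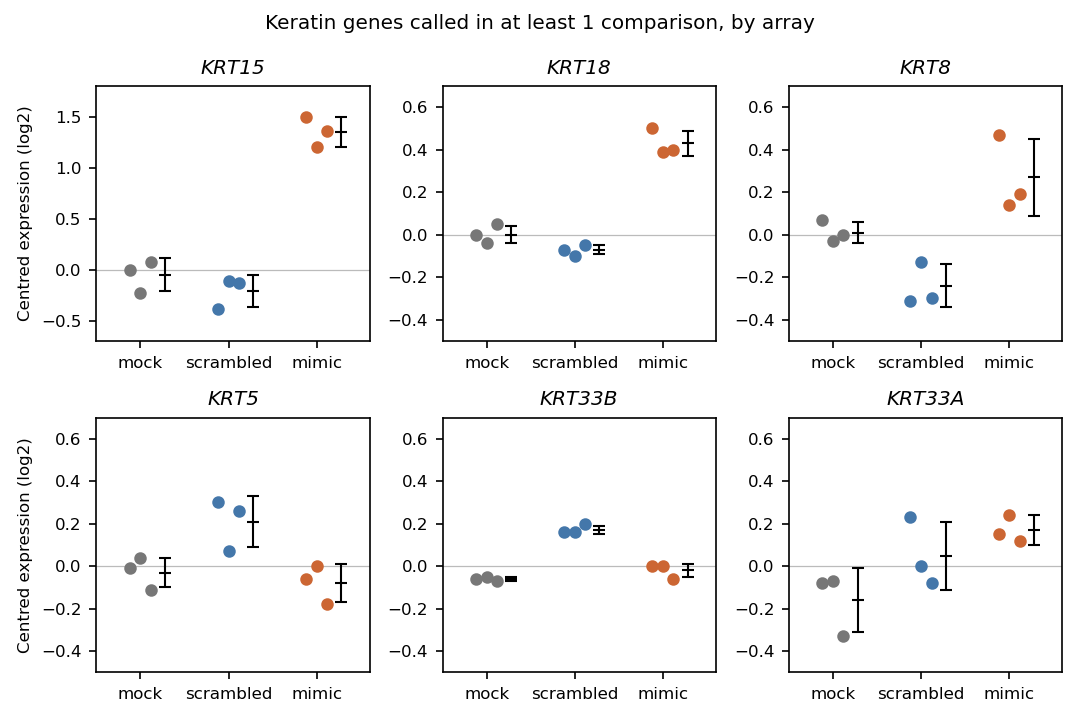
Centred log2 expression (vertical axis) of the 6 keratin genes called in at least 1 comparison, in each of 9 arrays grouped as mock, scrambled and mimic (horizontal axis). Points are arrays and the bars show mean and SD (n = 3); KRT15 has a wider axis. The mimic arrays lie above all control arrays for KRT15, KRT18 and KRT8, while for KRT33B the scrambled arrays stand above the other groups.

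KRT15, a type I keratin of basal epithelial cells and of the hair follicle bulge, showed the largest difference of the family. Its centred log2 values were 0.00, -0.23 and 0.07 in the mock arrays, -0.39, -0.11 and -0.13 in the scrambled arrays, and 1.50, 1.20 and 1.36 in the mimic arrays. Every mimic array lay above all 6 control arrays, and the control groups overlapped. KRT15 was 2.96-fold higher with mimic than scrambled RNA (log2 difference 1.56, SE 0.10, n = 3 per group, limma adjusted p = 3.75e-06) and 2.64-fold higher than in mock (1.40, SE 0.10, limma adjusted p = 8.2e-06). From the highest difference down it was rank 9 of 19775 genes in either comparison, which share the mimic arrays. It rests on 1 probe set, at a level from 4 to 8. Quantile normalization of the deposited values lowered the log2 differences to 1.07 and 0.89, and KRT15 was still called in both. That step gives every array the same distribution of centred values, which can itself pull in the largest differences. Whether it did so here was not tested, so the size of these differences, here and for genes below, is not settled.

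KRT18 and KRT8, the pair of simple epithelia, were both higher with mimic than scrambled RNA. KRT18, the type I partner, had centred log2 values of 0.00, -0.04 and 0.05 in the mock, -0.07, -0.10 and -0.05 in the scrambled and 0.50, 0.39 and 0.40 in the mimic arrays. The 3 mimic arrays lay above all controls, and the scrambled arrays lay just below the mock arrays. KRT18 was 1.42-fold higher against scrambled (log2 difference 0.50, SE 0.05, limma adjusted p = 4.19e-05) and 1.34-fold higher against mock (0.43, SE 0.05, limma adjusted p = 0.000127).

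KRT8, the type II partner, had centred log2 values of 0.07, -0.03 and 0.00 in the mock, -0.31, -0.13 and -0.30 in the scrambled and 0.47, 0.14 and 0.19 in the mimic arrays. The groups did not overlap and ran from scrambled through mock to mimic. KRT8 was 1.43-fold higher with mimic than scrambled RNA (log2 difference 0.51, SE 0.08, limma adjusted p = 0.00189). Against mock the difference was 0.25 (95% interval 0.07 to 0.44, limma adjusted p = 0.0616), which was not called, and scrambled minus mock was -0.26 (adjusted p = 0.0884), not called either. Mimic replicate 1 held the highest KRT8 value, and without it the difference was 0.41 against scrambled, still called, and 0.15 against mock.

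KRT8 and KRT18 lie next to each other on chromosome 12 of GRCh38.p14, where KRT18 is the single type I keratin gene. The other 23 type I genes measured lie on chromosome 17 and all 20 type II genes on chromosome 12. The gene on the other side of KRT8 is KRT78, a type II keratin with a difference of -0.03 (SE 0.05, not called). KRT15 lies on chromosome 17 between KRT13, at 0.00 (SE 0.08), and KRT19, at -0.03 (SE 0.11), neither of them called against scrambled. KRT8 and KRT18 were each measured by 1 probe set whose identifier ends in _x_at, a kind that can also hybridise to related transcripts, and both genes have processed pseudogenes. Without such probe sets neither gene could be tested, and 3 keratins were called against scrambled and 1 against mock.

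The remaining keratins of simple epithelia were not called against either control. KRT19, a type I keratin of ductal and glandular epithelia, had a log2 difference of -0.03 against scrambled (95% interval -0.28 to 0.22) and 0.01 against mock (-0.24 to 0.26). KRT20, a keratin of gut epithelium, differed by 0.08 (-0.05 to 0.21) and 0.02 (-0.10 to 0.15). These intervals lie within a 1.5-fold change in either direction.

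KRT7, the type II keratin of glandular epithelia that marks endometrial carcinomas, had a gene value at the level of 8 or more with a log2 difference of 0.00 against scrambled (95% interval -0.13 to 0.13) and -0.08 against mock (-0.21 to 0.05). Its 4 probe sets ranged from -0.12 to 0.31 against scrambled. The highest of them, at a level below 4, was called higher with the mimic (0.31, SE 0.06, limma adjusted p = 0.0105 over 54613 probe sets) and also against mock (0.27, SE 0.06, limma adjusted p = 0.0179; call lost without mock replicate 1 or mimic replicate 1). The probe sets of KRT7 therefore disagreed, and the one behind the gene value showed no call. KRT10, with 3 probe sets at 8 or more, ranged from -0.01 to 0.04.

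**Figure D2:**
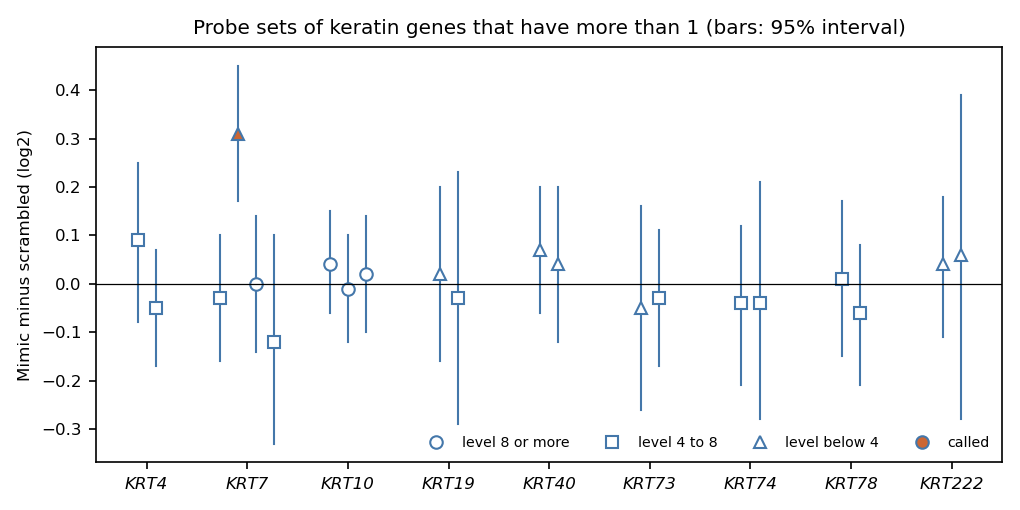
Mimic minus scrambled difference in log2 units (vertical axis) for each probe set of the 9 keratin genes that have more than 1 (horizontal axis). Bars are 95% intervals, shapes give the level class and a filled point is called; 1 of the 4 KRT7 probe sets, at 0.31 and below level 4, is the only filled point.

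At the level of probe sets, 6 of 56 keratin probe sets were called against scrambled, where 8.66% of all probe sets were called. They were those of KRT15, KRT8, KRT18, KRT5 and KRT33B, each the single probe set of its gene, and the low KRT7 probe set. Against mock 4 were called, with 12.1% of all probe sets, and for scrambled against mock 1 was called, with 4.07%.

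Of the other basal keratins, KRT5 was lower with mimic than scrambled RNA and KRT14 was not called. KRT5, the type II keratin of the basal layer, had centred log2 values of -0.01, 0.04 and -0.11 in the mock, 0.30, 0.07 and 0.26 in the scrambled and -0.06, 0.00 and -0.18 in the mimic arrays. The scrambled arrays were the high ones, and mock and mimic overlapped. KRT5 was 1.22-fold lower with mimic than scrambled RNA (log2 difference -0.29, SE 0.07, limma adjusted p = 0.0198), but differed by -0.06 from mock (95% interval -0.21 to 0.10, adjusted p = 0.665). Scrambled minus mock was 0.23 (adjusted p = 0.0733), not called. The call against scrambled was lost without scrambled replicate 1, scrambled replicate 3 or mimic replicate 3 (adjusted p = 0.0801, 0.0729 and 0.0768). In the fit over probe sets (adjusted p = 0.0408) the KRT5 call was lost in 8 of 15 alternatives. KRT14, the main type I partner of KRT5, lay below 4 and differed by -0.03 from either control (95% intervals -0.30 to 0.24 and -0.31 to 0.24).

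KRT33B, a type I keratin of the hair shaft cortex, followed a like order. Its centred log2 values were -0.06, -0.05 and -0.07 in the mock, 0.16, 0.16 and 0.20 in the scrambled and 0.00, 0.00 and -0.06 in the mimic arrays. The scrambled arrays lay above both other groups, which overlapped. KRT33B was 1.14-fold lower with mimic than scrambled RNA (log2 difference -0.19, SE 0.04, limma adjusted p = 0.00951). It was 1.17-fold higher in scrambled than in mock (0.23, SE 0.04, limma adjusted p = 0.00832), and mimic minus mock was 0.04 (95% interval -0.05 to 0.13). In the fit over probe sets, the call against scrambled (adjusted p = 0.0331) was lost in 9 of 15 alternatives, each scrambled or mimic array left out among them, and that of scrambled against mock (adjusted p = 0.0265) in 7 of 15. In the ACTB 3′ minus 5′ difference the scrambled group had the highest mean, with 1 mimic array (0.112) among its values; its part in the KRT5 and KRT33B values was not tested.

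KRT33A, the neighbour and close relative of KRT33B, was called against mock only. Its centred log2 values were -0.08, -0.07 and -0.33 in the mock, 0.23, 0.00 and -0.08 in the scrambled and 0.15, 0.24 and 0.12 in the mimic arrays. The mimic arrays lay above all mock arrays, and the scrambled arrays overlapped both groups. The difference was 0.33 against mock (1.25-fold, SE 0.09, limma adjusted p = 0.0272) and 0.12 against scrambled (95% interval -0.08 to 0.32). Its only probe set is of the kind that can match related transcripts. The call was lost after quantile normalization (adjusted p = 0.0737) and without mock replicate 3 (0.24, adjusted p = 0.0942), mimic replicate 1 (adjusted p = 0.0558) or mimic replicate 2 (adjusted p = 0.0942). In the fit over probe sets (adjusted p = 0.0466) it was lost in 9 of 14 alternatives.

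**Figure D3:**
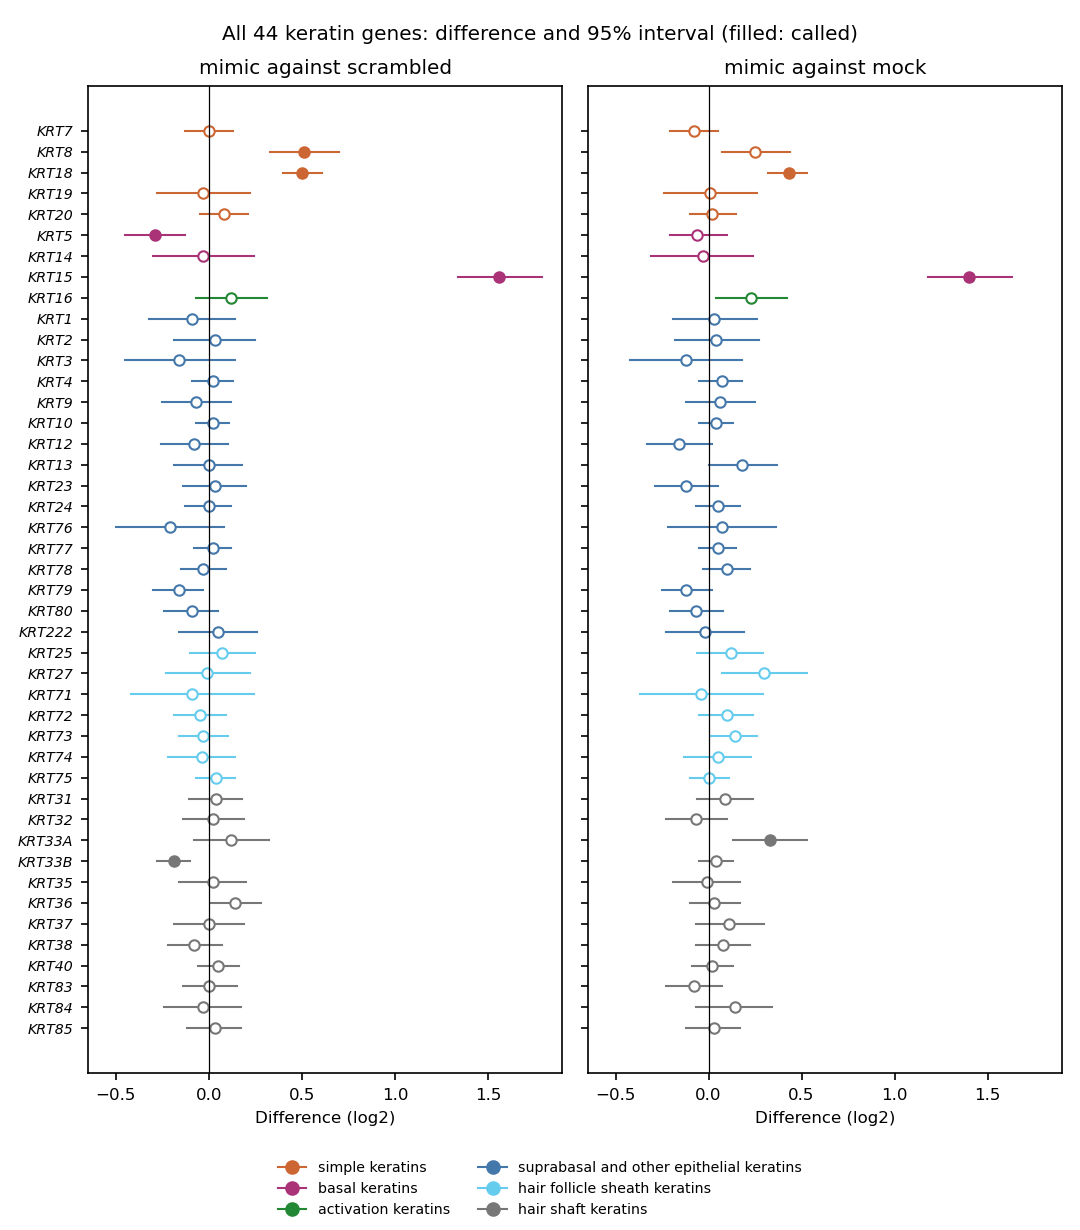
Difference in log2 units (horizontal axes) of mimic against scrambled (left) and mimic against mock (right) for all 44 keratin genes (vertical axis), coloured by the kind of epithelium or hair structure they are known for. Points are differences, bars are 95% intervals and filled points are called; KRT15 stands at 1.56 and 1.40, and most other keratins lie near 0 on both sides.

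Against mock, 3 of 44 keratins were called, all higher: KRT15, KRT18 and KRT33A. Over all genes, 18.6% were called in this comparison, 8.39% higher and 10.2% lower. For scrambled against mock, which sets the 2 controls side by side, KRT33B alone was called among the keratins, while 7.95% of all genes were called, 2.72% higher and 5.24% lower. The count of keratins was thus below the background in both comparisons, though near it for genes called higher. Fewer keratins than genes in general lay at a level of 8 or more (7 of 44, against 44.1% of all genes). The background was not matched for level. The comparisons share arrays: mimic against scrambled and scrambled against mock both use the scrambled arrays. Groups did not overlap for 5 keratins in mimic against scrambled (3 higher, 2 lower), 10 in mimic against mock (9 higher, 1 lower) and 8 in scrambled against mock (5 higher, 3 lower). Over all genes 30.0% did not overlap in the first (14.6% higher, 15.4% lower), 34.6% in the next (17.0% and 17.6%) and 30.3% in the last (15.0% and 15.2%).

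The 39 keratins not called against scrambled had log2 differences from -0.21 (KRT76) to 0.14 (KRT36), and 33 of them were within 0.1 of 0. Of all 44, the 95% interval lay within a 1.5-fold change for 41 (93.2%), against 96.6% of all genes. Against mock it did so for 43 (97.7%), and 96.3% of all genes did. The median SE of a difference was 0.0754 for keratins and 0.0591 for all genes.

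Grouped by role, the called keratins were simple, basal and hair shaft keratins. Of 5 simple keratins, 2 were higher against scrambled and 3 were not called, and of 3 basal keratins 1 was higher, 1 lower and 1 not called. Over all genes, 7.62% were called higher and 7.00% lower in that comparison, and groups this small cannot show a pattern by role. Of the activation keratins, which keratinocytes switch on in wounds, only KRT16 was measured: 0.12 against scrambled (95% interval -0.07 to 0.31) and 0.23 against mock (0.04 to 0.42, adjusted p = 0.091), not called. Its mock arrays stood at -0.15, -0.03 and -0.13 and its mimic arrays at 0.01, 0.00 and 0.36, so the mimic mean leans on 1 array. An unadjusted limma p under 0.05 was met by 5299, 6096 and 4799 of all 19775 genes for mimic against scrambled, mimic against mock and scrambled against mock. None of the 16 suprabasal and other epithelial keratins was called in any comparison, and 1, 1 and 2 met that unadjusted p, in the same order. This group holds KRT1 and KRT10, the pair of the differentiating epidermis, at -0.09 (SE 0.10) and 0.02 (SE 0.04), and KRT4 and KRT13, the pair of mucosal epithelia, at 0.02 (SE 0.05) and 0.00 (SE 0.08) against scrambled.

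Of 7 measured keratins of the hair follicle's inner and companion sheaths, 0 were called in any comparison. At an unadjusted limma p under 0.05 there were 0, 2 and 3, in the same order, and 5299, 6096 and 4799 of all 19775 genes. KRT27, an inner sheath keratin at a level below 4, had the highest difference of those not called in both comparisons with mock: 0.30 for mimic (adjusted p = 0.0678) and 0.31 for scrambled (adjusted p = 0.0941). Its centred values were -0.25, -0.20 and -0.09 in the mock, 0.21, -0.12 and 0.30 in the scrambled and 0.00, 0.11 and 0.26 in the mimic arrays, with the mock arrays low. Of 12 measured hair shaft keratins, KRT33B was the only one called against scrambled and KRT33A the only one called against mock. Over all genes, 14.6% and 18.6% were called in these comparisons with the mimic.

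By type, 24 type I genes gave 2 higher and 1 lower against scrambled, with a median log2 difference of 0.02. The 20 type II genes gave 1 higher and 1 lower, with a median of -0.03. Over all genes 7.62% were called higher and 7.00% lower, with a median of -0.01. For 3 textbook pairs the partners' differences against scrambled thus stood at 0.51 and 0.50 (KRT8 and KRT18), -0.29 and -0.03 (KRT5 and KRT14), and -0.29 and 1.56 (KRT5 and KRT15).

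The E-box bound by ZEB factors, CAGGTG, which reads CACCTG on the other strand, was looked for on both strands in the 250 bases before the start of each gene, since ZEB1 itself was lower with the mimic. RefSeq promoters on GRCh38.p14 were at hand for 29 of the 44 keratins, not including KRT15 and KRT18. The motif was in 4 of them (13.8%): KRT5, KRT33B, KRT71 and KRT79. Of all 27305 genes with a promoter it was in 20.6%. Only the starts listed in that source were searched, so a gene given as without the motif, KRT8 included, may hold it before another start. A link of the motif to a difference was not tested. Of its holders, KRT71 and KRT79 were not called against scrambled (-0.09 and -0.16). KRT5 and KRT33B were called lower there but were not called against mock. KRT8 (chr12:52926470-52926719, minus strand) and KRT5 (chr12:52520395-52520644, minus strand) are printed 5′ to 3′ as a gene called higher against scrambled without the motif and one called lower with it. The motif is in capitals and begins 130 bases before the KRT5 start.
KRT8: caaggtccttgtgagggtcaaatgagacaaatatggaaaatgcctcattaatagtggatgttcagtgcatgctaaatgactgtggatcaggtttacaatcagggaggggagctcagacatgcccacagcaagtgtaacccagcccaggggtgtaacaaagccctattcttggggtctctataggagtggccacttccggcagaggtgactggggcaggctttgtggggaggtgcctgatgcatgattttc
KRT5: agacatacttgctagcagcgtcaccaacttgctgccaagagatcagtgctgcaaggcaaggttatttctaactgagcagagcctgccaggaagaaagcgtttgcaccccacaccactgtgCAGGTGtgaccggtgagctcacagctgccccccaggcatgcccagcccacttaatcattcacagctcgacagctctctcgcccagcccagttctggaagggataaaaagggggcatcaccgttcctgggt

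Several genes whose products anchor keratin filaments were higher with the mimic. Of 16 linkers and partners, 7 were higher and 0 lower against scrambled, with a median log2 difference of 0.14, and 6 were higher and 0 lower against mock. Over all genes 7.62% were called higher against scrambled and 8.39% against mock. The lists of linkers, other intermediate filament genes and regulators were chosen with earlier results of these data known. Their counts beside all genes are therefore descriptive and no independent evidence about these groups. PPL, which encodes periplakin, a plakin that binds keratins, had a log2 difference of 1.05 (SE 0.08, limma adjusted p = 1.49e-05), and 0.70 after quantile normalization. DSP, desmoplakin, the protein that ties keratin filaments to desmosomes, had one of 0.69 (SE 0.06, limma adjusted p = 2.3e-05). PKP2, a desmosomal plaque protein, and FLG, filaggrin, which bundles keratins in the epidermis, were each higher by 0.71 (SE 0.08 and 0.06). The 2 probe sets of PKP2 stood at 0.37 and 1.06, with 1 of them called. DSP had centred log2 values of -0.20, 0.00 and 0.02 in the mock, -0.03, -0.10 and -0.06 in the scrambled and 0.61, 0.64 and 0.64 in the mimic arrays, with no overlap between mimic and controls. For scrambled against mock, 0 of the 16 and 7.95% of all genes were called. At an unadjusted limma p under 0.05 there were 4 of the 16 and 4799 of all 19775 genes.

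Of 15 other intermediate filament genes, 0 were higher and 2 lower against scrambled, and 5 were lower against mock, where 7.00% and 10.2% of all genes were called lower. For scrambled against mock, 3 of the 15 were lower, with 5.24% of all genes. NES and VIM were not among these 3. NES, nestin, fell by 0.36 on the log2 scale (SE 0.05, limma adjusted p = 0.00068) and VIM, vimentin, the filament of mesenchymal cells, fell by 0.23 (SE 0.04, limma adjusted p = 0.00456) against scrambled. Each had 2 probe sets with 1 called, at -0.36 and -0.30 for NES and at -0.26 and -0.23 for VIM. Against mock the NES probe sets disagreed (-0.46 and 0.05), and the NES call was lost with the mean of both (limma adjusted p = 0.135). VIM was 0.13, 0.11 and 0.14 in the mock, 0.02, 0.00 and -0.01 in the scrambled and -0.18, -0.28 and -0.22 in the mimic arrays, so its groups did not overlap. Against scrambled, KRT8 and KRT18 thus were higher while VIM was lower, each by under 1.5-fold.

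Of 15 measured regulators of keratin genes, 6 were higher and 2 lower against scrambled (7.62% and 7.00% of all genes), 4 were higher and 2 lower against mock (8.39% and 10.2%), and 0 were higher and 2 lower for scrambled against mock (2.72% and 5.24%). ZEB1 fell by 1.57 on the log2 scale (SE 0.06, limma adjusted p = 1.42e-07), though its 4 probe sets ranged from -1.59 to -0.17 and their mean fell by 0.99. KLF5, a factor of proliferating epithelial cells, was higher by 0.81 (log2), OVOL2, a repressor of ZEB1, by 0.61 and TFAP2C, an AP-2 factor, by 0.47 (limma adjusted p = 1.05e-05, 5.33e-05 and 0.000142). TFAP2C was 0.34 lower in scrambled than in mock arrays, and higher by 0.14 against mock, not called. Its 2 probe sets stood at 0.09 and 0.85 against scrambled, with 1 of them called. Of 7 epithelial markers, 3 were higher against scrambled: CDH1 (3.26, SE 0.12), EPCAM (1.06, SE 0.05) and MUC1 (0.61, SE 0.06). PAX8 fell by 0.21, and the other 3 were not called. The 3 probe sets of MUC1 ran from 0.39 to 0.94, all called higher. The CDH1 value rests on 1 of 2 probe sets, the other being at 0.58; CDH1 stood at 1.92 with the mean of both and at 1.69 after quantile normalization, which lowered EPCAM to 0.66. The PAX8 call against scrambled was lost in 5 of 17 alternatives, its 8 probe sets ran from -0.62 to 0.04 with 4 called lower, and PAX8 was also lower in scrambled than in mock arrays (-0.34). Against mock PAX8 fell by 0.55 (limma adjusted p = 5.26e-05), with 7 of 8 probe sets called lower and the call kept in all 17 alternatives. In that comparison 3 of the 7 markers were higher and 2 lower (8.39% and 10.2% of all genes).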

How the data were processed

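Biotin labelled copies of Trizol extracted total RNA were hybridised to Affymetrix arrays, per the labels' protocols. The deposited values are log2 expression after each probe set's median was taken off; the base of the logarithm is assumed, and the summarisation and normalization by the authors are not given in the sources used here. In 48.89% of probe sets more than 1 value was exactly 0, as in 33 of 56 keratin probe sets, which can lower the spread.

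Of 54675 probe sets, 62 controls were left out, 41091 had 1 gene symbol, 1801 had several and 11721 none. A gene is the mean of its 1-symbol probe sets in its highest level class (98.1% of classes were recovered on 6000 simulated probe sets). Symbols matched the RefSeq table of GRCh38.p14 by identifier for 41037 probe sets, with 0 differing. Using limma 3.58.1 (R 4.3.3; lmFit, eBayes, two-sided), a model of group means over all 9 arrays was fitted on 19775 genes and on 54613 probe sets, with calls at an adjusted p under 0.05. On simulated data for mimic against scrambled (5 runs, 200 changed of 19775 genes) 96.7%, 100% and 100% of changes of 0.5, 1 and 2 were recovered, and 5.09% of calls were false. Precision is limited by the number of arrays.

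The keratins, 6 keratin lists and 6 lists of other genes were chosen with earlier results of these data known. Named are the keratins called in any comparison, KRT5, KRT7, KRT8, KRT14, KRT17 (not analysed here), KRT18, KRT19 and KRT20, of each other list up to 4 genes of lowest p for mimic against scrambled, and ZEB1, CDH1 and VIM; other keratins are named as ends of a range, neighbours or textbook pairs, chosen after their values were seen. Alternatives were quantile normalization, the mean of all probe sets, no _x_at probe sets, levels of 4 or 8 and more, 2 groups only, a replicate block, array weights and leaving out each array.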

Additional observations from a re-analysis of the deposited data

How the results depend on the processing

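In the gene fit of mimic against scrambled, KRT15, KRT18, KRT8 and KRT33B were called under each alternative run that tested them, with log2 differences of 1.07 to 1.64, 0.41 to 0.53, 0.41 to 0.57 and -0.22 to -0.17. The count of keratins called, 5, fell to 3 without _x_at probe sets and to 2 with level 8 or more only (2 probe sets there), where fewer keratins are tested, and was 4 to 5 with 1 array left out. The 6 probe sets (4 higher, 2 lower) became 4 (4 higher, 0 lower) with 2 groups only and with the replicate block, and 4 to 6 with 1 array left out; those of KRT15, KRT18 and KRT8 kept their calls in all 15 alternatives each, and those of KRT5 and KRT33B lost them in 8 and 9 of 15. For mimic against mock, 3 keratins became 1 without _x_at probe sets, 5 with the replicate block, 6 with array weights and 2 to 4 with 1 array left out. Its 4 probe sets became 2 without _x_at probe sets, 2 at a level of 8 or more and 2 to 4 with 1 array left out. For scrambled against mock, 1 keratin became 2 after quantile normalization, 2 with 2 groups only, 4 with array weights and 1 to 3 with 1 array left out, highest without scrambled replicate 2. Its 1 probe set became 0 with the replicate block and 0 to 1 with 1 array left out. In the unblocked limma fit 10 of 44 keratin genes had an unadjusted p under 0.05, as did 4799 of all 19775 genes. Over all genes in that comparison 1573 calls became 2426 with array weights and 766 to 1653 with 1 array left out. KRT8 in mimic against mock was called at a level of 8 or more (adjusted p = 0.0289), with array weights (0.0359) and without mimic replicate 2 (0.0395). KRT8 in scrambled against mock was called in 5 alternatives (adjusted p from 0.0278 to 0.0408), and KRT5 in 2 (0.0435 with array weights and 0.0344 without scrambled replicate 2). No direction of a called gene reversed among the keratins named. Where the number of genes or arrays did not change, the cause was not tested.

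Replicate numbers do not show a pairing: deviations of same-numbered arrays correlated at -0.155 to 0.118. For mimic against scrambled the replicate block left 5 keratin genes called, but among probe sets neither KRT5 nor KRT33B. Signal over background is not known, which limits what can be said of keratins in the low classes.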

Other observations

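Probe sets with related symbols outside the rule gave no call. There were 39 for genes of keratin associated proteins, which form the matrix around hair keratins, 8 for keratin pseudogenes or antisense transcripts and 6 for other genes or shared with them (KRTCAP2, KRTCAP3, KRTDAP, and probe sets shared by KRT34 or KRTAP21-1 with another gene). In limma's fit, 8.66%, 12.1% and 4.07% of all 54613 probe sets were called for mimic against scrambled, mimic against mock and scrambled against mock. Of the 39, 0 were called in any comparison, with 0, 2 and 3 at an unadjusted limma p under 0.05, in the same order. Of the 8, 0 were called, with 0, 2 and 1 at that unadjusted p, and of the 6, 0 were called, with 0, 0 and 0. Against scrambled the log2 differences ranged from -0.14 to 0.22 for the 39 and from -0.09 to 0.14 for the 8.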
